A study of Saccharomyces cerevisiae with 16 samples.

Results

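An mCherry reporter whose RPS3 terminator carried 2 copies of an A motif (modNAA) was compared with the same reporter carrying random inserts only (modNNN). The comparison uses 4 of the 16 libraries of the series, 2 per construct, chosen by the construct named in their labels. The modNAA libraries held 1781614 and 1959846 reads, and the modNNN libraries 1441230 and 1510282 reads. All 4 came from budding yeast of the strain BY4741, which carries no chromosomal copy of the URA3 marker and was given it on the reporter plasmid. The plasmid is a low copy one, and in both constructs the RPS3 promoter drives mCherry. Cultures were grown for 4 h at 30 °C in SC medium without uracil to an OD600 of 0.7. Each modified terminator has 3 insertion sites of 9 bp. In modNAA, 2 of them hold the A motif and 1 a random sequence (N), and in modNNN all 3 hold random sequence. The motif that sets modNAA apart is shown here as the series' design text gives it, 5′ to 3′, with all 6 of its bases in capitals.
A motif: ATATTC

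The random inserts and the terminator's full sequence are not used here, so 3′ ends could not be placed relative to the inserts. Only 1 design of each construct was measured. The labels do not say whether the libraries of a construct came from separate cultures or transformants, so p-values speak only of library-to-library spread, possibly a technical one. Neither do the sources used here give the sequence against which each construct's reporter reads were aligned.

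The 3′ UTR of a yeast mRNA holds signals that direct cleavage and polyadenylation and that set the rate of decay. Cleavage usually happens at a cluster of neighbouring positions, steered by AU-rich and A-rich elements upstream, so 1 gene gives mRNAs with several 3′ ends. ATATTC in yeast 3′ UTRs has been associated with short mRNA half-lives. In HT-5PSeq, RNAs that carry a 5′ phosphate are ligated and sequenced. In cytoplasmic decay such ends arise after decapping, when the exonuclease Xrn1 digests the mRNA behind the last ribosome, and also by endonucleolytic cleavage. A read therefore counts mostly a decay intermediate, and its number is not a measure of total mRNA. Because reverse transcription started from oligo(dT) alone, the 3′ ends of these RNAs were read as well.

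The reporter was lower with the A motifs. It had 5283 and 4965 reads in the modNAA libraries, against 9537 and 8946 in the modNNN libraries. On the CPM scale, on which counts are divided by all reads of the library, that is 2965 and 2533 CPM in modNAA, against 6617 and 5923 CPM in modNNN. Both modNAA libraries lay below both modNNN libraries, and the gap between the groups was larger than the spread within either. The means were 2749 ± 305 CPM in modNAA and 6270 ± 491 CPM in modNNN (SD, n = 2 each), and the fitted level was 2.33-fold lower in modNAA. With edgeR's quasi-likelihood test across the whole gene table, the log2 fold change was -1.22 (SE 0.17, Benjamini-Hochberg adjusted p = 0.030).

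The reporter was the 1 row of 5262 tested whose adjusted p fell below 0.05 on the lower side (0.019%), and no row did so on the higher side (0%). Among the 158 rows with a mean of at least 1000 CPM, the largest change of a host gene was -0.88 (SE 0.26, not called), for PMP2. The size of the reporter's change held better than its call. The log2 fold change stayed between -1.38 and -1.08 when any 1 library of the fit was left out. The adjusted p went to 0.19 without modNAA 1, to 1.0 without modNAA 2 and to 0.13 without modNNN 1, so the call rests on having all 3 of them. It was also lost without either library of modNTN, a construct with 1 insert of another motif, at adjusted p = 0.19 and 0.18.

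URA3, with which the plasmid is selected, encodes the last enzyme of uridine monophosphate synthesis. Plasmid copy number was not measured here. It had 5246 and 5388 CPM in modNAA, against 5134 and 4483 CPM in modNNN. The log2 fold change was 0.11 (SE 0.17, edgeR adjusted p = 0.94), and its difference did not pass the test. Per read of plasmid URA3, the modNAA libraries held 0.565 and 0.470 reporter reads, against 1.29 and 1.32 in the modNNN libraries. The means were 0.518 ± 0.067 in modNAA and 1.31 ± 0.023 in modNNN (SD, n = 2 each). Taken from the means of the log2 ratios, the value was 2.53-fold lower with the A motifs. With 2 libraries against 2, the two-sided exact permutation test gave p = 0.333, the smallest it can give with 6 splits.

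In the other constructs the same ratio was 1.39 and 1.59 in modNTN and 1.46 in the single usable library of modNGG, whose G insert the labels do not spell out. It was 0.915 in the single library of modHNH, 0.392 in that of modHTH and 1.48 and 1.06 with the unmodified terminator (WT). The modHTH library, with an insert of T and 2 of H, thus stood below both modNAA libraries. Every other usable reporter library stood above them.

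3 transcripts whose genes lie outside the construct served as controls. Native RPS3, a small-subunit ribosomal protein gene that lends the reporter its promoter and terminator, had 3305 and 3649 CPM in modNAA, against 4029 and 3567 CPM in modNNN. PGK1, a glycolytic kinase, had 1989 and 1143 CPM in modNAA, against 1574 and 2426 CPM in modNNN. TSA1, a peroxiredoxin, had 2032 and 2062 CPM in modNAA, against 2548 and 2196 CPM in modNNN. The libraries of the 2 constructs overlapped for RPS3 and PGK1 but not for TSA1. The log2 fold changes were -0.17 (SE 0.15) for RPS3, -0.39 (SE 0.28) for PGK1 and -0.25 (SE 0.17) for TSA1, and none passed the test (edgeR adjusted p = 0.86, 0.81 and 0.80). All 3 estimates were below 0, and each was smaller than the reporter's.

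**Figure D1:**
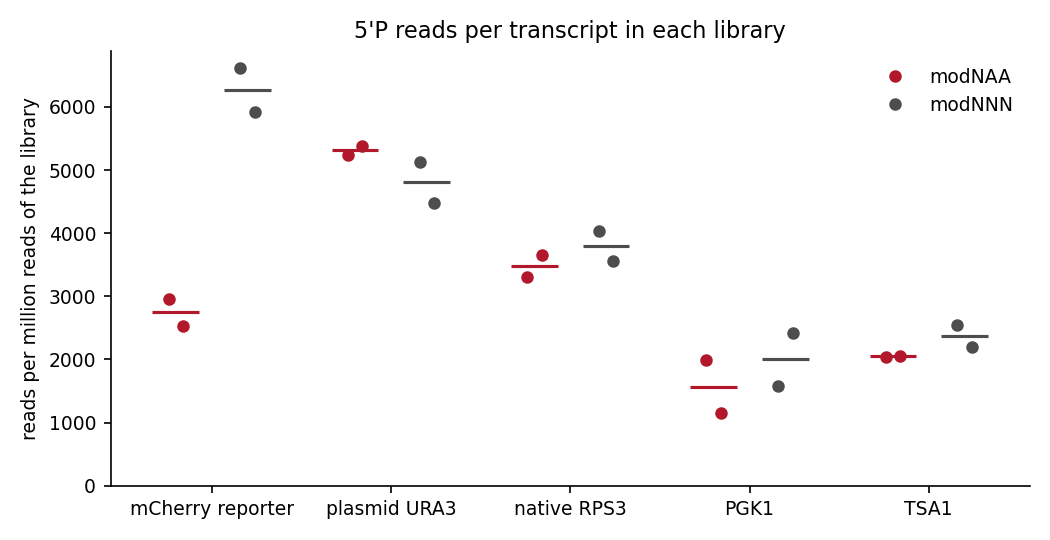
CPM for the mCherry reporter, plasmid URA3 and 3 host transcripts, with modNAA left of modNNN. Points are the 2 libraries of each construct and lines their means. The reporter stands at 2965 and 2533 in modNAA and at 6617 and 5923 in modNNN, while the other 4 transcripts differ less.

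The libraries bore out most of the strain's markers. The deleted genes URA3 and MET17 had 0 reads in every usable library of the series (at least 1000 reads, 13 of 16), and LEU2 had at most 2 reads. HIS3, of which the strain keeps part, had 198 to 582 reads. Genes of mating type a were read in all 4 libraries, such as MFA2, an a-factor gene, with 3100 and 3405 reads in modNAA and 2048 and 2165 in modNNN. Of the genes for mating type alpha, MF(ALPHA)1 had 1 or 2 reads per library in these 4, MF(ALPHA)2 0 to 2 and STE3 6 to 13. The agglutinin gene SAG1 had 86 and 68 reads in modNAA and 45 and 56 in modNNN, so it was not at 0.

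The positions at which the reporter ended differed more sharply than its level. The table of 3′ ends, counted in nucleotides (nt) after the stop codon, held 5207 and 4906 reporter ends in modNAA, against 8101 and 8120 in modNNN. Both constructs have inserts of 1 stated length, so a position is taken to mean the same distance in each. The A motif has 6 bases and an insertion site 9 bp, and the rest of the site was not examined. If the true lengths differed, positions would be offset between the constructs, which was not tested. Each position's share of the reporter's ends was tested with edgeR at the 64 positions that passed a filter on low counts. The share was higher in modNAA at 8 positions (12.5%) and lower at 22 (34.4%), at an adjusted p below 0.05. Of the lower ones, 42, 174 and 176 nt passed the filter only through the modNNN libraries. They could therefore only come out lower. Without modNAA 2 the counts were 5 higher and 7 lower, without modNAA 1 12 were lower, and with positions merged into clusters 2 clusters were higher and 11 lower. The 8 higher positions together held 43.3% of the ends in modNAA and 15.7% in modNNN. The 22 lower positions held 9.70% in modNAA and 36.9% in modNNN. Both sets were picked on these same shares, so the direction of each gap follows from the choice. Since shares of 1 transcript sum to a fixed total, a higher share at some positions requires a lower one at others.

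Counted in percentage points, the largest of the 8 gains lay at 80 nt. There lay 11.8% and 12.1% of the reporter's counted 3′ ends in modNAA, against 1.77% and 1.92% in modNNN. The share was 6.51-fold higher in modNAA, with a log2 fold change of 2.70 (SE 0.17, edgeR adjusted p = 4.9e-08). The neighbours at 78 and 81 nt moved with it. Position 78 held 2.21% and 1.73% in modNAA, against 0.346% and 0.357% in modNNN, a log2 fold change of 2.48 (SE 0.25). Position 81 held 5.68% and 6.03% in modNAA, against 1.74% and 1.49% in modNNN, a log2 fold change of 1.86 (SE 0.20). The range from 78 to 82 nt was chosen after the values were seen. Together its positions held 20.3 ± 0.18% of the ends in modNAA and 4.04 ± 0.12% in modNNN (SD, n = 2 each). The libraries did not overlap.

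A second gain lay closer to the stop codon. Position 60 held 3.26% and 3.34% in modNAA, against 0.370% and 0.333% in modNNN, a log2 fold change of 3.23 (SE 0.24, edgeR adjusted p = 2.3e-07). Position 62 held 1.67% and 1.55% in modNAA, against 0.383% and 0.259% in modNNN, a log2 fold change of 2.32 (SE 0.28). The position between them went the other way: 61 nt held 0.768% and 0.713% in modNAA, against 2.63% and 1.56% in modNNN. All 3 differences passed the test, so within 3 neighbouring positions the preferred end differed between the constructs.

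The main loss lay at 55 nt, a position used by 7.47% and 10.6% of the ends in modNNN but by only 0.269% and 0.122% in modNAA. These are 14 and 6 ends in modNAA, against 605 and 861 in modNNN. The log2 fold change of the share was -5.51 (SE 0.31, edgeR adjusted p = 2.4e-08). Its neighbours at 56 and 57 nt did not lose share. Position 57 held 10.5% and 10.3% in modNAA, against 8.47% and 11.3% in modNNN (adjusted p = 0.75). Position 56 held 5.82% and 5.50% in modNAA, against 3.18% and 6.29% in modNNN (adjusted p = 0.47).

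3 more positions with lower shares carried most of the rest. Position 68 held 0.730% and 0.856% in modNAA, against 8.02% and 3.94% in modNNN, a log2 fold change of -2.92 (SE 0.33, edgeR adjusted p = 1.2e-05). The modNNN libraries differed among themselves here, with the first above the second, yet both lay above modNAA. Position 45 held 3.26% and 2.77% in modNAA, against 7.62% and 6.32% in modNNN, a log2 fold change of -1.21 (SE 0.22). Position 86 held 0.960% and 1.06% in modNAA, against 3.65% and 1.85% in modNNN, a log2 fold change of -1.45 (SE 0.33).

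The most used position of both constructs kept its share of the 3′ ends counted by position. At 75 nt lay 19.9% and 21.1% of these reporter ends in modNAA, against 19.3% and 19.4% in modNNN (log2 fold change 0.09, SE 0.11, edgeR adjusted p = 0.56). Of all reporter reads, 98.6% and 98.8% were counted by position in modNAA, against 84.9% and 90.8% in modNNN. Taken over all reporter reads, the share at 75 nt would fall more in modNNN, and it was not tested on that scale. The next position, 76 nt, held 17.9% and 18.3% in modNAA, against 11.9% and 10.1% in modNNN. Its share was higher in modNAA, with a log2 fold change of 0.72 (SE 0.16, adjusted p = 0.0038). Scaled to all reads of the library its level did not follow, at 491 ± 45 CPM in modNAA and 607 ± 88 CPM in modNNN (SD, n = 2 each; adjusted p = 0.24).

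Ends far from the stop codon were scarcer with the A motifs. Beyond 100 nt lay 0.749% and 0.673% of the ends in modNAA, against 3.18% and 2.45% in modNNN. Position 176 held 5 and 2 ends in modNAA, against 74 and 42 in modNNN, with a log2 fold change of the share of -3.35 (SE 0.52). Position 174 held 1 and 0 ends in modNAA, against 32 and 33 in modNNN. Both positions passed the filter on low counts only through the modNNN libraries. They could only come out lower, so their tests are not taken as evidence and only the counts are given.

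The gene table holds further reporter reads whose 3′ ends are not in the position table. In modNAA the position table accounted for 98.6% and 98.8% of the reporter's reads, against 84.9% and 90.8% in modNNN. The unplaced reads came to 42.7 and 30.1 CPM in modNAA, against 996 and 547 CPM in modNNN, and where they end was not analysed here. The exact permutation p was 0.333, the smallest that 2 libraries against 2 allow. Plasmid URA3 did not show this gap, with 81.9% and 82.7% placed in modNAA and 82.01% and 79.5% in modNNN. TSA1 did not either, at 99.6% and 99.9%, against 99.8% and 100%. Other controls varied widely between libraries of 1 construct. Native RPS3 had 78.4% and 85.4% placed in modNAA, against 90.2% and 78.8% in modNNN, and PGK1 75.5% and 79.7%, against 86.5% and 76.1%. With the placed ends alone, the reporter's log2 fold change was -1.05 and its adjusted p 0.13.

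**Figure D2:**
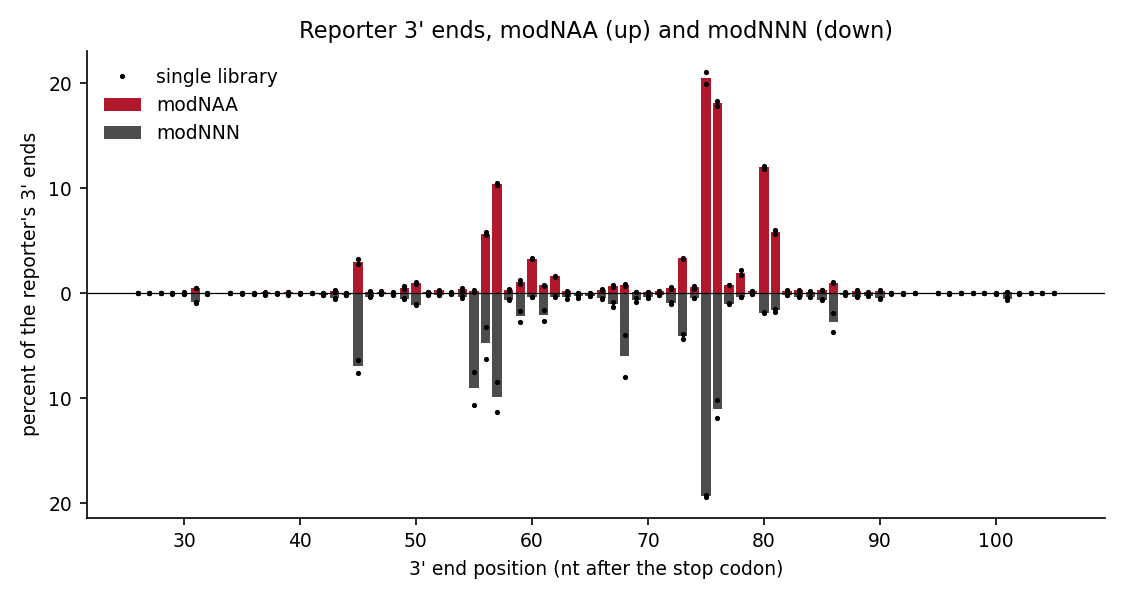
Share of the reporter's 3′ ends by position after the stop codon (nt), with modNAA drawn upward and modNNN downward. Bars are means of 2 libraries and points the single libraries. The 80 nt position holds 11.8% and 12.1% in modNAA, the 55 nt position 7.47% and 10.6% in modNNN, and 75 nt is shared.

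The mean position of the reporter's ends was 70.4 and 70.9 nt in modNAA, against 69.2 and 67.3 nt in modNNN. The difference of 2.39 nt had an exact permutation p of 0.333, the smallest possible with these 4 libraries. The medians were 75 and 75 nt in modNAA, against 73 and 68 nt in modNNN. Both measures cover placed ends only, which were 98.6% and 98.8% of the reporter's reads in modNAA, against 84.9% and 90.8% in modNNN. How the unplaced reads would change the size or direction of the difference was not tested. Positions with a higher and with a lower share lie on both sides of these means.

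Counted against all reads of the library, most reporter ends were rarer in modNAA, and a few were more abundant. Of the 71 positions tested on this scale, 5 were higher in modNAA (7.04%) and 46 lower (64.8%). The lower ones again include 42, 174 and 176 nt, which passed the filter only through modNNN. The 5 were 80, 60, 78, 62 and 81 nt. At 80 nt the level was 325 ± 30 CPM in modNAA and 101.3 ± 2.9 CPM in modNNN (SD, n = 2 each), 3.21-fold higher in modNAA. At 60 nt it was 89.5 ± 8.3 CPM in modNAA and 19.4 ± 2.1 CPM in modNNN, 4.62-fold higher. Per read of the library, these ends were more abundant in modNAA while the reporter as a whole was less so.

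The positions that kept their share of the placed ends fell less than all reporter reads together, which were 2.33-fold lower in modNAA. At 75 nt the level was 555 ± 38 CPM in modNAA and 1062 ± 29 CPM in modNNN, 1.91-fold lower in modNAA. At 57 nt it was 282 ± 34 CPM in modNAA and 542 ± 93 CPM in modNNN, 1.92-fold lower. The loss at 55 nt was far larger, at 5.46 ± 3.4 CPM in modNAA and 495 ± 106 CPM in modNNN, 91-fold lower. The window from 17 to 200 nt was divided into 7 regions, drawn after the values were seen. The one from 78 to 82 nt was the sole one with both modNAA libraries above both modNNN libraries. It stood at 549 ± 55 CPM in modNAA and 222 ± 14 CPM in modNNN. The other 6 had both modNAA libraries below both modNNN libraries. Positions 60 and 62 nt, also higher in modNAA, fall in the region from 53 to 63 nt, together with the loss at 55 nt. Which regions stand higher thus depends on how they were drawn.

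**Figure D3:**
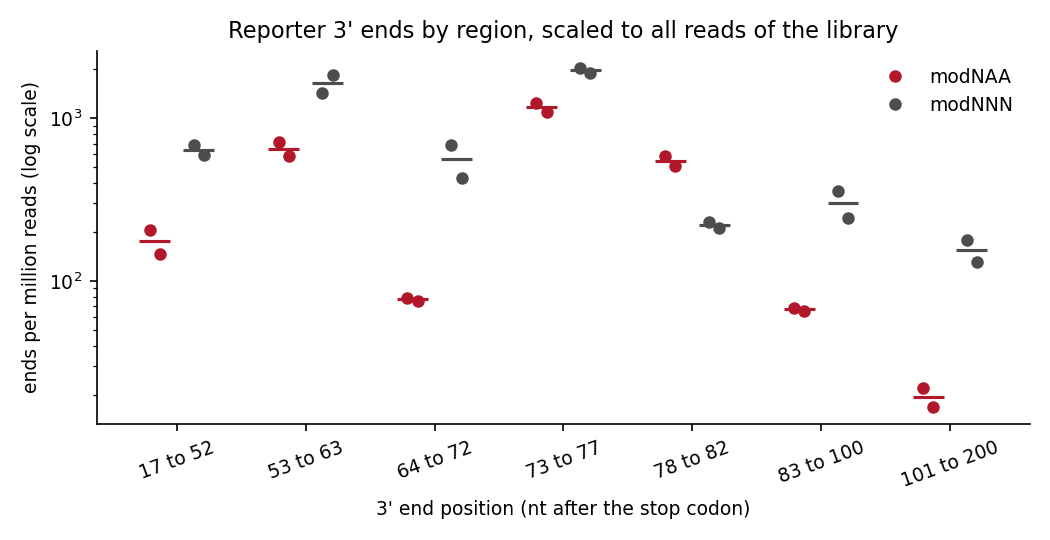
CPM of reporter 3′ ends in 7 regions after the stop codon, on a log scale, with modNAA left of modNNN. Points are libraries and lines means, and the regions were chosen after the values were seen. The region from 78 to 82 nt stands higher in modNAA (588 and 510) than in modNNN (232 and 213), and the other 6 stand lower.

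The positions that set modNAA apart from modNNN were also used in some other constructs. At 80 nt the single modNGG library had 14.9% of its reporter ends (95% Wilson interval 14.3 to 15.4%, counting error only), more than either modNAA library. The modNTN libraries had 2.49% and 2.85% there, modHNH 0.941% and modHTH 1.64%. At 55 nt the single modHNH library had 19.1% (95% Wilson interval 18.2 to 20.1%), more than either modNNN library. There the modNTN libraries had 0.759% and 0.781%, modNGG 2.40% and modHTH 0.638%, all closer to modNAA than to modNNN. At 45 nt, by contrast, modNTN had 0.371% and 0.227%, below both modNAA libraries, and modNNN had the highest share of all usable reporter libraries. Use of 80 nt and disuse of 55 nt were not confined to the construct with A motifs, and modNNN itself was the outlying construct at 45, 68 and 176 nt. At 68 nt the share in the other modified constructs lay between 0.307% and 1.49%, and at 176 nt between 0 and 0.0337%.

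The same test on transcripts whose terminators do not differ between the groups called no position. For native RPS3, 0 of 29 positions passed (0%), with 2 at an unadjusted p below 0.05. For PGK1 it was 0 of 31, with 3 at an unadjusted p below 0.05, for TSA1 0 of 32 with 2, and for plasmid URA3 0 of 25 with 0 (edgeR, as for the reporter). Without the library modNNN 2, 3 RPS3 positions were called higher and 1 lower, 1 TSA1 position lower, and 1 plasmid URA3 position each way. The counts of 0 for RPS3, TSA1 and plasmid URA3 thus rest on that library.

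A summary over positions showed the same contrast. The share of ends that would have to change position to turn 1 distribution into the other was 30.8 percentage points for the reporter between the construct means. Between the 2 modNAA libraries it was 4.45 percentage points, and between the 2 modNNN libraries 13.5. For native RPS3 the difference between the means was 7.58, with 5.08 within modNAA and 17.6 within modNNN. For PGK1 it was 4.75, for TSA1 3.09 and for plasmid URA3 3.04, each below the difference between the 2 libraries of either construct. Means of 2 libraries vary less than single libraries, so a lower value between constructs is partly built into this measure. The reporter was the only transcript of these 5 whose constructs differed by more than the libraries within each.

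**Figure D4:**
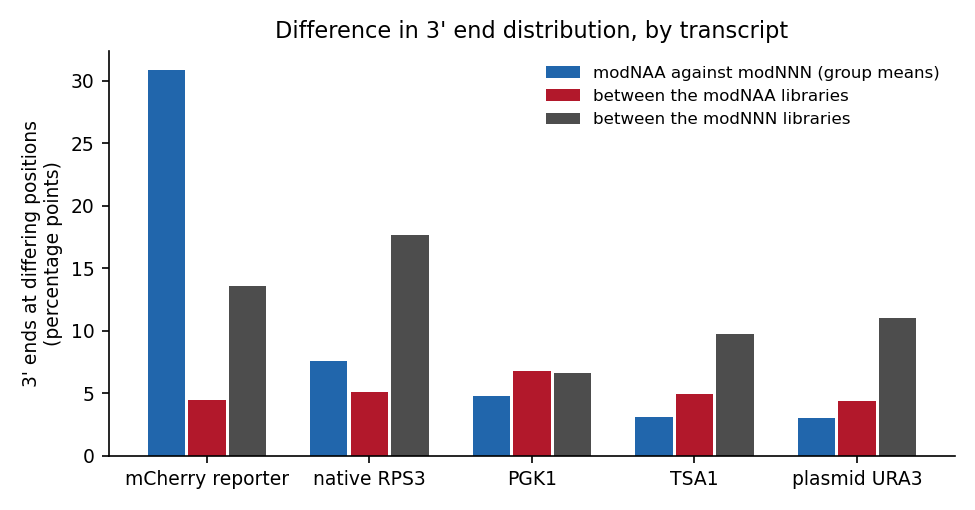
Percentage points of 3′ ends at differing positions (the summed absolute difference in shares divided by 2) for 5 transcripts. Bars give modNAA against modNNN (group means), then the 2 modNAA libraries against each other, then the 2 modNNN libraries. The reporter stands at 30.8 against 4.45 and 13.5, and for the 4 other transcripts at least 1 within-construct bar is higher than the bar between constructs.

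5′-phosphorylated ends were counted in a window from 299 nt before to 49 nt after the stop codon. The reporter had 3599 and 3775 such ends in modNAA, against 6431 and 5628 in modNNN. The highest count of a position was 44 and 45 in modNAA, against 63 and 58 in modNNN, and 14 to 22 positions shared it in each library. These tied positions held 16.7% to 22.0% of the ends, so the counts look capped at a highest value per library. Peak heights were not compared, and the totals, window shares and frame shares of 5′P ends given here hold only for counts so limited. Before -20 nt lay 97.6% and 96.6% of the ends in modNAA, against 97.7% and 98.2% in modNNN.

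Near the stop codon the libraries of the 2 constructs differed by a small share, in a window chosen after the values were seen. From -13 to 2 nt lay 1.61% and 2.23% of the reporter's 5′P ends in modNAA, against 0.886% and 0.675% in modNNN. These are 58 and 84 ends in modNAA, against 57 and 38 in modNNN. The libraries did not overlap, and the exact permutation p was 0.333, the smallest possible. Ends at -7 nt numbered 11 and 16 in modNAA, against 4 and 1 in modNNN, and ends at 1 nt 15 and 12, against 7 and 6. The sources used here do not say whether position 0 is the first or the last base of the stop codon.

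The controls differed among themselves here. In TSA1 the same window held 0.411% and 0.649% in modNAA, against 0.236% and 0.0768% in modNNN, and in PGK1 0.212% and 0.218%, against 0.159% and 0.0363%. For native RPS3 it ran the other way, at 0.349% and 0.327% in modNAA, against 0.574% and 0.423% in modNNN. Past the stop codon, from 3 to 49 nt, the reporter had 0.583% and 0.848% in modNAA, against 0.840% and 0.817% in modNNN, and the libraries overlapped. From -19 to -14 nt, where the end behind a ribosome at the stop codon is usually found, the values were 0.167% and 0.344% in modNAA, against 0.544% and 0.338% in modNNN, and they overlapped as well. The most used reading frame before -20 nt held 38.0% and 35.7% of the reporter's 5′P ends in modNAA, against 35.5% and 34.9% in modNNN (exact permutation p = 0.333).

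No host gene passed the test between the 2 constructs. Of 5268 host genes tested, 0 were called (0%; edgeR, smallest adjusted p = 0.76), and DESeq2 called 0 as well. The count was 7 without the library modNNN 2, 2 with the near-empty libraries included and 8 with the replicate numbers of the 2 constructs crossed. An unadjusted p below 0.05 was found for 327 genes with edgeR, of which 150 had higher estimates and 177 lower ones, and for 156 with DESeq2. The fold changes were narrow, with a median log2 of -0.0095 and quartiles at -0.18 and 0.15, and 24 genes lay past 2-fold. In 1094 genes both modNAA libraries were above both modNNN libraries (20.8%), and in 679 they were below (12.9%). These were counted on CPM, without the scaling between libraries that the fit applies. With that scaling 48.5% of the estimates were above 0, so the larger share above is not read as a shift of host genes. The 20.8% and 12.9% are the background for every statement on single host genes that follows.

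**Figure D5:**
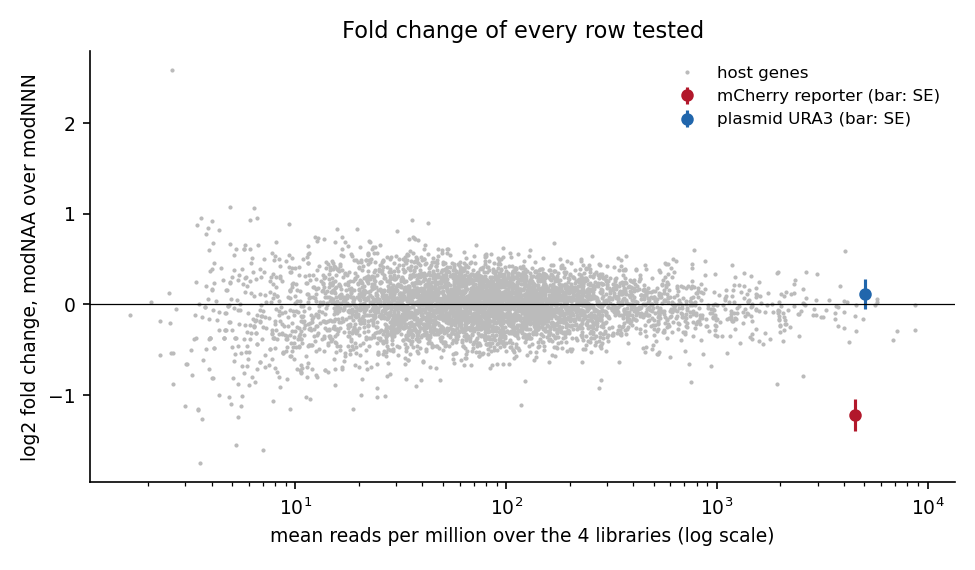
Log2 fold change of modNAA over modNNN against the mean CPM of the 4 libraries, on a log scale, for 5268 host genes (grey), the reporter (red) and plasmid URA3 (blue). Bars are standard errors. The reporter stands at -1.22, below every host gene with a mean of at least 1000, and plasmid URA3 at 0.11.

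The host genes with the smallest unadjusted p among those that did not overlap are given as values that did not pass. On the higher side, MIC27, a subunit of the complex that shapes mitochondrial cristae (chromosome XIV, 437613 to 438317, R64), had 51.1 and 60.2 CPM in modNAA, against 28.4 and 29.8 CPM in modNNN. Its 9 other usable libraries ran from 39.9 to 58.4 CPM, so here modNNN was the lower one. CAN1, the arginine permease (chromosome V, 31694 to 33466), had 100 and 135 CPM in modNAA, against 75.6 and 73.5 CPM in modNNN, and TCP1, a subunit of the cytosolic chaperonin, had 153 and 266 CPM, against 126 and 130 CPM. The other 5 were UPS2, MRX1, MAK5, SRL1 and REV1, with log2 fold changes from 0.56 to 0.94. SRL1, a mannoprotein gene, was the most abundant of the 8, at 866 and 1030 CPM in modNAA, against 501 and 710 CPM in modNNN.

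On the lower side, SPT4, a transcription elongation factor (chromosome VII, 617516 to 617824), had 95.4 and 83.2 CPM in modNAA, against 169 and 144 CPM in modNNN. Its other libraries ran from 90.5 to 130 CPM, so both modNNN libraries lay above them. PMP2, a small proteolipid of the plasma membrane proton pump (chromosome V, 122798 to 122929), had 1583 and 1173 CPM in modNAA, against 2853 and 2112 CPM in modNNN. MBF1, a transcriptional coactivator (chromosome XV, 877230 to 877685), had 521 and 565 CPM in modNAA, against 1242 and 677 CPM in modNNN, where 1 library stood far above the other. Without modNNN 2, which is the lower of them, MBF1 was called, and SPT4 was called with the near-empty libraries included. The other 5 were RFS1, BXI1, GMC1, FMP40 and a transcript listed as YBR126W-B, with log2 fold changes from -1.0 to -0.55. Of the 15 among these 16 genes that the deposited annotation places, 12 overlap another annotated transcript. The share over all annotated transcripts was not computed, so 12 of 15 is not shown to be unusual. PMP2 and MIC27 each overlap a gene on the other strand. The sources used here do not say whether reads were counted by strand, and reads of such pairs may not be separated.

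The factors that make and remove mRNA 3′ ends and 5′ caps were looked at as groups. None of their members passed the test. Of 25 factors of cleavage and polyadenylation, 11 had estimates above 0, with a median log2 fold change of -0.016, beside 48.5% and -0.0095 over all host genes. HRP1, which binds the AU-rich efficiency element of 3′ end signals, had 430 and 513 CPM in modNAA, against 291 and 411 CPM in modNNN (log2 fold change 0.38, SE 0.19). NAB2, a poly(A)-binding protein, had 87.6 and 87.3 CPM in modNAA, against 89.5 and 130 CPM in modNNN (-0.37, SE 0.19).

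Among 25 genes of decapping and 5′ to 3′ decay, 17 had estimates above 0 (median 0.18). LSM2, of the ring that binds deadenylated mRNA and promotes decapping, stood at 0.44 (SE 0.22), and LSM5, of the same ring, at -0.38 (SE 0.19). For the exosome and its cofactors, which degrade RNA from the 3′ end, 16 of 21 estimates were above 0 (median 0.21). SKI3, a scaffold of the cytoplasmic exosome's helper complex, had 139 and 142 CPM in modNAA, against 103 and 107 CPM in modNNN (0.39, SE 0.16). The deadenylases of the Ccr4-Not and Pan complexes had 9 of 14 estimates above 0 (median 0.035), with PAN3 at 0.50 (SE 0.23). Of 25 proteins that bind 3′ UTRs, 10 were above 0 (median -0.034), among them PUF6 at 0.38 (SE 0.18), while MPT5, a Puf protein that represses its target mRNAs, was at -0.53 (SE 0.24).

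In the groups tied to growth and stress, 0 members were called as well. In the general stress response, 20 of 24 estimates were below 0 (median -0.25), where 51.5% of all host genes were. RTC3, a stress-induced gene, had 419 and 434 CPM in modNAA, against 520 and 612 CPM in modNNN (-0.45, SE 0.20). The group's summed level was 7191 and 6485 CPM in modNAA, against 7508 and 7971 CPM in modNNN. Glycolytic genes had 14 of 17 estimates below 0 (median -0.16), with TPI1, triose phosphate isomerase, at 2197 and 1592 CPM in modNAA, against 3871 and 2561 CPM in modNNN (-0.79, SE 0.28). Their summed levels overlapped, at 56960 and 45215 CPM in modNAA, against 52995 and 62392 CPM in modNNN.

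Chaperones of the heat shock response had 17 of 22 estimates below 0 (median -0.15), but their summed levels overlapped, at 19274 and 18798 CPM in modNAA, against 17375 and 19267 CPM in modNNN. SSA1, a cytosolic Hsp70, stood at -0.54 (SE 0.22), and HSC82, the constitutive Hsp90, went the other way, at 4317 and 5477 CPM in modNAA, against 3070 and 3268 CPM in modNNN (0.59, SE 0.19). HSC82, SSA1 and many genes of the small ribosomal subunit have near-identical paralogs, and the sources used here do not say how their reads were shared. Of 20 thioredoxin and peroxiredoxin system genes, 8 were above 0 (median -0.085), and AHP1, a thiol peroxidase, stood at -0.40 (SE 0.17). Of 56 genes for proteins of the small ribosomal subunit, the group of native RPS3, 20 were above 0 (median -0.065). Of 14 genes of uracil uptake and pyrimidine synthesis, which the medium without uracil calls on, 5 were above 0 (median -0.12).

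Transcript length moved with these small differences. With the host transcripts split by length into 4 groups of about equal size, from short to long, the median log2 fold change was -0.069, -0.045, -0.012 and 0.057. The part of transcript length in the group medians was not tested.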

How the data were processed

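The deposited gene table gives the authors' raw read counts by transcript, and the deposited position tables give counts of 3′ or 5′P ends by distance from the stop codon. The submitters' processing notes name cutadapt, HISAT2, SAMtools, bedtools and featureCounts, the quality tools FastQC and MultiQC, and the genome sacCer3 (R64), without versions or settings. Per the file headers, the annotation was written with rtracklayer 1.42.1. Whether reads of the same molecule were collapsed is not given, so intervals cover counting error only. Gene symbols and coordinates come from RefSeq R64 (5550 of 5696 host rows matched).

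Of the 16 libraries, 13 held 1070844 to 2939907 reads. Replicate 2 had 477 reads for modNGG, 267 for modHNH and 69 for modHTH, and libraries with fewer than 1000 reads were left out. A group with 1 library is assumed to vary like the others. Genes were fitted with edgeR 4.0.16 (TMM, filterByExpr, glmQLFit, glmQLFTest, R 4.3.3) without covariates beside group, host genes over 13 libraries and plasmid rows over the 11 with the reporter, and the contrast modNAA minus modNNN was tested with Benjamini-Hochberg adjustment over all rows at 0.05. The standard error is the absolute log2 fold change over the square root of F. 3′ end positions were fitted the same way per transcript, with all ends of the transcript as library size and no TMM. Single values used two-sided exact permutation of 2 libraries against 2 (scipy 1.17.1). DESeq2 1.42.0 was an alternative, and the scripts were tested on simulated data.

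Members and gene lists were chosen with earlier results of these data known. Named were the reporter, plasmid URA3, 3 control transcripts, strain markers, the host genes that did not overlap with the smallest p (8 per direction, since none passed), list members with the smallest p, and sites with the highest share or the smallest p. Regions of 3′ and 5′P ends, and position 86, were chosen after the values were seen.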

Additional observations from a re-analysis of the deposited data

How the results depend on the processing

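The reporter's log2 fold change was -1.22 and stayed below 0 under every alternative run, but its call did not hold under all of them. It was lost with the near-empty libraries included (-1.23, adjusted p = 0.73), with only the modNAA and modNNN libraries (-1.23, 0.057), with the reporter counted as 3′ ends in the window (-1.05, 0.13) and when scaled to plasmid URA3 reads (-1.33, 0.22). It was kept with library totals (adjusted p = 0.0021), upper quartile scaling (0.031), no filter (0.011), 4 groups of 2 libraries (0.022) and DESeq2 (2.5e-08). Leaving out 1 library gave -1.38 to -1.08. Plasmid URA3 stayed above 0 and uncalled throughout. The labels share replicate numbers, but same-numbered modNAA and modNNN libraries tended to deviate in opposite directions (r = -0.31 across genes). The numbers as given thus do not pair them, and the main fit does not model this opposite deviation. With a replicate block the reporter stood at -1.22 (adjusted p = 0.058), 0 host genes were called, and 7 reporter positions were higher and 21 lower. The crossed pairing, added after seeing the data, called 8 host genes. The host count was 2 with the near-empty libraries (SPT4 and MAD2, named for that reason) and 0 to 7 when 1 library was left out, with 7 without modNNN 2. The length-trend alternative gave no count, as calls were not retested.

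The 8 higher and 22 lower reporter positions became 2 and 11 clusters, and 5 and 46 positions when scaled to all reads, where the change at 76 nt turned to -0.31. Leaving out 1 library gave 5 to 8 higher and 7 to 22 lower positions, with 5 and 7 without modNAA 2 and 12 lower without modNAA 1. The control positions were 0 to 3 higher and 0 to 1 lower for RPS3, 0 to 1 lower for TSA1, and 0 to 1 each way for plasmid URA3. The shift in position of the placed ends was 4.5 nt by the median, against 2.39 nt by the mean. The log2 difference in reporter per plasmid URA3 read was -1.20 in the windows, against -1.34. The region from 3 to 49 nt for 5′P ends differed by -0.25 to 0.019 percentage points when 1 library was left out. The 14 and 6 ends at 55 nt in modNAA limit the precision of its fold change.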
